A study of Rattus norvegicus with 6 samples.

Results

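The mitochondrial ribosome is the ribosome inside mitochondria. It translates the few messenger RNAs encoded by mitochondrial DNA, all of them for subunits of the respiratory chain and the ATP synthase. Its RNAs are encoded in mitochondrial DNA, whereas all of its proteins are encoded in the nucleus, made in the cytosol and imported. Genes of large-subunit proteins carry the symbol Mrpl and genes of small-subunit proteins the symbol Mrps. Islets depend on mitochondrial ATP, which couples glucose metabolism to insulin secretion. The genes described here are the rows of the deposited table whose names begin with Mrpl or Mrps followed by a digit, in that letter case: 70 of 18625 named genes, 42 of the large and 28 of the small subunit by symbol. No expression value was used to choose them.

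RNA sequencing of total RNA depleted of ribosomal RNA profiled pancreatic islets, freshly isolated from rats, at embryonic day 19 (fetal) and after birth (postnatal), with 3 libraries in each group. No strain, genotype or treatment is given for either group. The labels do not state whether the replicates are separate animals or preparations, and the p-values therefore reflect the spread among the 6 libraries, part of which may be technical. The titles give 2 weeks of age for all postnatal libraries, whereas by their age labels postnatal replicates 1, 2 and 3 are from weeks 2, 3 and 4. The comparison asks how the late fetal islet transcriptome differs from that of young rats. Values are in scaled CPM, that is, counts relative to the library's total (CPM) after this total was adjusted between libraries. The fetal libraries held 26051449, 37819935 and 30689713 reads and the postnatal ones 29186578, 28174506 and 29515446.

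The preparations differed in the marker genes of several cell types. Acinar cells secrete digestive enzymes, and 19 of 20 listed acinar marker genes are in the table. These took 11.1% ± 1.65 of the fetal and 32.6% ± 12.9 of the postnatal reads (mean ± SD, n = 3 each), with summed levels of 73943 to 113005 and of 237355 to 700990 scaled CPM. The 6 hormone genes took 0.424% ± 0.200 and 7.17% ± 3.53, and 8 of 10 listed erythroid genes 0.703% ± 0.411 and 0.113% ± 0.0463. Of all genes tested, 33.1% fell and 30.0% rose in the test described below. The acinar list went both ways: of its 19 genes, 12 rose, 2 fell and 5 did not pass. Mesenchymal and endothelial marker genes rose in 6 of 7 and 6 of 6 cases. Of 7 duct marker genes 3 fell, a share near that of all genes. The 7 hepatic marker genes in the table took 0.727% of the reads in fetal replicate 2, against 0.0254% and 0.0286% in the other fetal and 0.00789% to 0.00940% in the postnatal libraries. No marker in these lists was at 0 in every library. What part the mix of cells has in the differences of the mitochondrial ribosomal protein genes was not tested. In bulk RNA fewer cells of a type and less RNA per cell cannot be told apart.

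Mitochondrial ribosomal protein genes were lower in postnatal than in fetal islets almost throughout, by about the same amount in both subunits. Of 69 genes tested, 67 fell and none rose (limma on log2(scaled CPM + 1), Benjamini-Hochberg adjusted p under 0.05 over all 12926 genes tested), where 33.1% of all genes tested fell and 30.0% rose. By edgeR and by DESeq2 on the reads recovered from the table, 67 genes fell and none rose as well, where edgeR called 32.9% of all genes tested lower and 30.0% higher and DESeq2 32.2% and 32.5%. At an unadjusted p under 0.05 none rose by limma. Without fetal replicate 2, the library with the largest share of hepatic marker genes, 38 large-subunit and 27 small-subunit genes fell, with medians of -1.04 and -0.95. The median log2 fold change was -1.01, against -0.03 over all genes tested. A fall by at least 2-fold (log2 fold change of -1 or less) was found in 35 genes, 24 of the large and 11 of the small subunit, where 12.1% of all genes tested fell that far. The 3 postnatal values lay below the 3 fetal values in 67 genes, where this held for 36.9% of all genes tested. Between 80 and 4786 reads stood behind a single value of a tested gene. The gene not tested was Mrps21l, a gene named after Mrps21, which had no read in any of the 6 libraries.

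**Figure D1:**
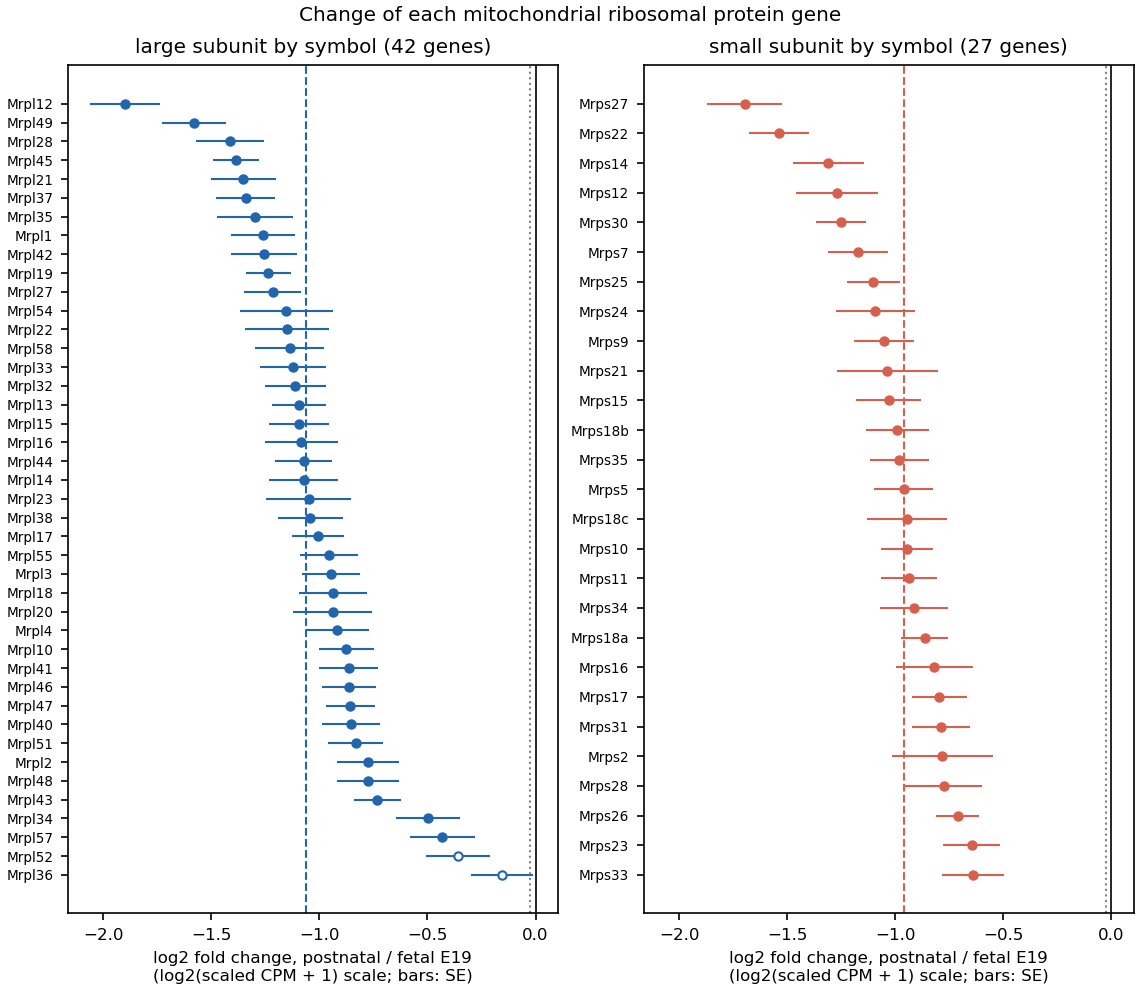
Log2 fold change of each mitochondrial ribosomal protein gene tested, postnatal over fetal E19, with its standard error, for the large (left) and the small subunit (right). Filled points passed an adjusted p of 0.05 and open points did not; dashed lines mark the subunit medians (-1.06 and -0.96) and the dotted line the median of all genes tested (-0.03). All points lie below 0, from Mrpl12 (-1.90) to Mrpl36 (-0.15).

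The groups also differed in the plain share of reads, before any scaling between libraries. Mitochondrial ribosomal protein genes took 0.307%, 0.314% and 0.340% of the reads in fetal replicates 1, 2 and 3, and 0.104%, 0.125% and 0.129% in postnatal replicates 1, 2 and 3. The groups do not overlap. Wilson 95% intervals reached from 0.305% to 0.309% in fetal replicate 1 and from 0.103% to 0.105% in postnatal replicate 1, and cover counting error only. Acinar and hormone genes filled much of the postnatal libraries, which lowers the share of all other genes. Of the reads outside acinar and hormone marker genes, the shares were 0.340%, 0.360% and 0.386% in the fetal and 0.215%, 0.187% and 0.197% in the postnatal libraries, a smaller difference in which the groups again do not overlap. Set against other genes read from the same library, the proteins of the mitochondrial ribosome kept a similar place beside the respiratory chain: their reads were 0.267, 0.256 and 0.265 times those of 69 nuclear respiratory chain genes in the fetal libraries and 0.252, 0.262 and 0.253 times in the postnatal ones, and these ranges overlap. The ratio to the 13 protein genes of mitochondrial DNA was 0.214, 0.229 and 0.228 in the fetal and 0.126, 0.0906 and 0.104 in the postnatal libraries, where the groups do not overlap. The ratio to 72 cytosolic ribosomal protein genes was 0.0414 to 0.0450 in the fetal and 0.0374 to 0.0446 in the postnatal libraries. The ratio to 10 proliferation genes went the other way, from 0.623, 0.725 and 0.619 in the fetal to 1.57, 1.53 and 1.68 in the postnatal libraries, with no overlap.

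Large and small subunit fell side by side. The median log2 fold change was -1.06 for 42 large-subunit genes, of which 40 fell, and -0.96 for 27 small-subunit genes, of which all 27 fell. The median gene stood at 46.5% of its fetal mean in the large and at 49.6% in the small subunit. The difference between the medians, small minus large, was 0.10 on the log2 scale; over the alternative settings it lay between 0.05 and 0.14. It was given no test, because genes of a subunit are not replicates. The summed level of small-subunit genes was 0.616, 0.602 and 0.618 times that of large-subunit genes in fetal replicates 1, 2 and 3 and 0.641, 0.643 and 0.623 times in the postnatal ones. These ranges do not overlap, but the highest fetal and the lowest postnatal ratio lie close together.

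Symbols do not follow the structure throughout. Mrps30 and Mrps18a encode proteins that sit in the large subunit of the mammalian mitochondrial ribosome. Counted there, they leave the difference between the medians at 0.10. Proteins with a relative in bacterial ribosomes and proteins listed as specific to mitochondria did not stand far apart. In this order, the medians were -1.08 for 26 and -0.95 for 16 large-subunit genes. For small-subunit genes they were -0.96 for 15 and -0.95 for 10. These last 10 include Mrps18b, although it is a relative of bacterial protein S18.

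Among large-subunit genes, Mrpl12 showed the largest fall. It encodes the protein of the flexible stalk to which translation factors bind. It stood at 102, 112 and 127 scaled CPM in fetal replicates 1, 2 and 3 and at 37.8, 26.2 and 26.3 in postnatal replicates 1, 2 and 3. All postnatal libraries were far below all fetal ones, and the log2 fold change was -1.90 ± 0.16 SE (limma adjusted p = 7.65e-05). The stalk base gene Mrpl10 fell by 0.88 ± 0.13, from 49.8 ± 6.91 to 26.5 ± 1.85 (mean ± SD, n = 3). Mrpl54, another gene listed with the stalk, fell by 1.15 ± 0.21. The row mrpl11, for the other protein of the stalk base, is written in lower case and so lies outside the 70 genes; it fell by 0.99 ± 0.16. Whether Mrpl12 differs from the other stalk genes in its change was not tested.

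The next largest falls belonged to genes of other regions of the large subunit. Mrpl49, a protein specific to mitochondria, stood at 50.6, 57.4 and 69.4 in the fetal and 20.5, 16.3 and 20.3 in the postnatal libraries. Its log2 fold change was -1.58 ± 0.15. Mrpl28 and Mrpl21, both with bacterial relatives, fell by 1.41 ± 0.16 and 1.35 ± 0.15. Mrpl45, the protein that holds the exit of the peptide tunnel to the inner membrane, stood at 42.8, 47.2 and 50.1 before and 18.5, 16.2 and 17.1 after birth. It had the smallest adjusted p of the 69 genes (-1.38 ± 0.11; limma adjusted p = 5.30e-05). Of the 6 genes placed around the tunnel exit all fell, with a median of -1.06. The row mrpl24, also listed there, is written in lower case and so lies outside the 70 genes. It did not pass (-0.07 ± 0.11). All 8 genes of the central protuberance, the crest of the large subunit facing the small one, fell, with a median of -0.95.

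Mrpl3, near the peptidyl transferase centre, fell by 0.95 ± 0.13, from 55.4 ± 6.55 to 28.3 ± 3.67. Mrpl44, which has the fold of a ribonuclease, fell by 1.07 ± 0.13. Mrpl58, a peptidyl-tRNA hydrolase built into the ribosome that is known for rescuing stalled ones, fell by 1.14 ± 0.16, from 40.3 ± 5.49 to 17.8 ± 3.28.

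A group of 4 large-subunit genes changed least. Mrpl36, with a bacterial relative, stood at 5.25, 4.99 and 6.23 in the fetal and 5.26, 4.75 and 4.44 in the postnatal libraries. The groups overlap, and the gene did not pass (log2 fold change -0.15 ± 0.14; limma adjusted p = 0.365). In RefSeq (assembly GRCr8) its span overlaps that of Ndufs6, a gene of respiratory complex I that the table lists at 0 in all 6 libraries; whether reads of one were counted for the other was not tested. Mrpl52, specific to mitochondria, stood at 48.8, 58.8 and 62.1 before and 53.1, 40.02 and 39.1 after birth. Postnatal replicate 1 lay within the fetal range and the gene did not pass (-0.36 ± 0.15; limma adjusted p = 0.0661), but without postnatal replicate 1 it passed with -0.50 (limma adjusted p = 0.00946), and without fetal replicate 1 with -0.46 (limma adjusted p = 0.0409). It also passed in unscaled CPM, at -0.71.

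Mrpl57 and Mrpl34 passed narrowly. Mrpl57, specific to mitochondria, stood at 20.9, 24.9 and 27.3 in the fetal and 19.996, 14.8 and 18.6 in the postnatal libraries. Fetal replicate 1 and postnatal replicate 1 nearly met (log2 fold change -0.43 ± 0.15; limma adjusted p = 0.0376). Leaving out any of fetal replicates 2 and 3 and postnatal replicates 2 and 3 ended the call, at log2 fold changes of -0.41, -0.35, -0.31 and -0.47. Mrpl34, with a bacterial relative, went from 19.6 ± 2.89 to 13.6 ± 1.65 (-0.50 ± 0.15; limma adjusted p = 0.0198), and the same 4 libraries ended its call, at -0.47, -0.41, -0.42 and -0.49. Both calls were also lost when rescaled to the reads outside the 20 highest genes (-0.20 and -0.28), outside acinar and hormone genes (-0.23 and -0.30) and with the replicate number as a block, and that of Mrpl57 with upper-quartile factors (-0.32) and with no filter on low values (limma adjusted p = 0.0531). The next gene in this order, Mrpl43, fell by 0.73 ± 0.11.

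Among small-subunit genes, Mrps27 and Mrps22 fell most. Mrps27 encodes an RNA-binding pentatricopeptide protein. It stood at 36.0, 39.3 and 47.1 in fetal replicates 1, 2 and 3 and at 14.8, 11.6 and 9.56 in postnatal replicates 1, 2 and 3, with a wide gap between the groups (-1.70 ± 0.17; limma adjusted p = 1.61e-04). Mrps22, whose human counterpart is mutated in a mitochondrial disease, stood at 37.7, 43.4 and 52.4 before and 15.2, 13.4 and 15.1 after birth. Its log2 fold change was -1.54 ± 0.14. Mrps12, a protein of the decoding centre, fell by 1.27 ± 0.19, from 30.5 ± 4.18 to 12.2 ± 3.27. Mrps14, of the head of the subunit, fell by 1.31 ± 0.16, and Mrps30 by 1.25 ± 0.12.

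The smallest falls of the small subunit left at most 62.8% of the fetal mean. Mrps33, specific to mitochondria, stood at 31.6, 38.6 and 44.2 in the fetal and 25.01, 21.3 and 25.6 in the postnatal libraries (-0.64 ± 0.14; limma adjusted p = 0.00564). Mrps23 and Mrps26, also specific to mitochondria, fell by 0.65 ± 0.13 and 0.71 ± 0.10. Mrps28 had the lowest number of reads behind a single value (80) and fell by 0.78 ± 0.18. Mrps2 was the least even: it stood at 20.8, 14.2 and 19.6 before and 14.0, 9.50 and 7.48 after birth, so that fetal replicate 2 and postnatal replicate 1 nearly met. Its fall (-0.78 ± 0.23; limma adjusted p = 0.0199) did not pass when fetal replicate 1 or 3 or postnatal replicate 2 or 3 was left out, at -0.68, -0.72, -0.75 and -0.59, nor when rescaled to the reads outside the 20 highest genes (-0.57) or outside acinar and hormone genes (-0.60).

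Mrps16 and Mrps34, both linked to human mitochondrial disease, fell by 0.82 ± 0.18 and 0.91 ± 0.16. The 3 relatives of bacterial protein S18 take different places in the ribosome, Mrps18a in the large and Mrps18b and Mrps18c in the small subunit. They fell alike in size, by 0.86 ± 0.11, 0.99 ± 0.15 and 0.95 ± 0.19. Differences among them were not tested.

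The fall was even across genes and the libraries kept a common order. In 48 of the 69 genes the log2 fold change lay between -1.25 and -0.75. Fetal replicate 1 was the lowest fetal library in 65 genes and fetal replicate 3 the highest in 65. Postnatal replicate 1, the library labelled week 2, was the highest postnatal library in 60 genes. These orders depend on the scaling. In unscaled CPM, fetal replicate 1 was the lowest fetal library in 42 genes and fetal replicate 2 in 24, and fetal replicate 3 was the highest in 57. In unscaled CPM, postnatal replicate 1 was the lowest postnatal library in 59 genes and the highest in 4. In that library the 20 highest genes of the table, most of them digestive enzymes or hormones, took 53.7% of the reads, against 36.2% and 37.0% in postnatal replicates 2 and 3 and 11.9% to 15.2% in the fetal libraries, and its scaling factor was the smallest (0.677). No order by age can be read from it, since each age is 1 library.

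**Figure D2:**
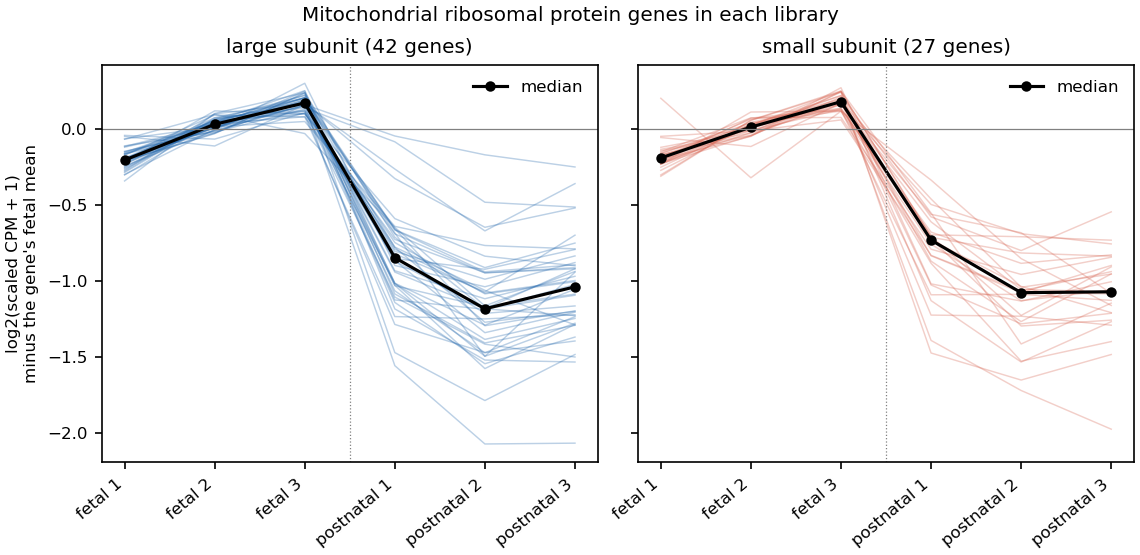
Each thin line is 1 mitochondrial ribosomal protein gene, plotted as log2(scaled CPM + 1) in each library minus the gene's mean in the fetal libraries, for the large (left) and small subunit (right); black points are medians. Lines only join values of the same gene, and replicates of a group have no order. Most lines drop together between the groups, and the few that stay high in the left panel include Mrpl36 and Mrpl52.

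**Figure D3:**
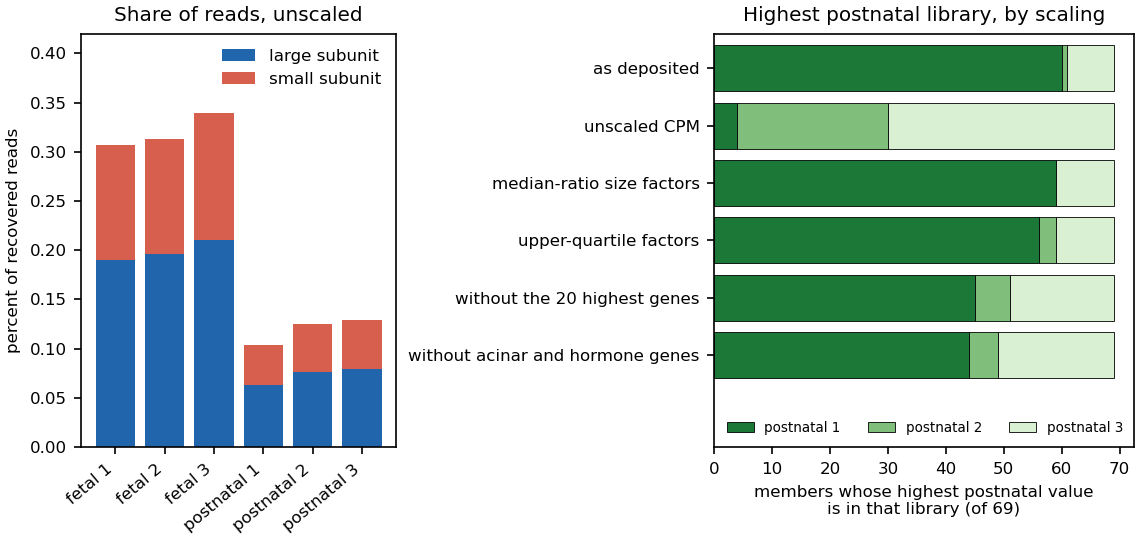
Left: percent of each library's recovered reads in mitochondrial ribosomal protein genes, stacked by subunit, with 0.307% to 0.340% in the fetal and 0.104% to 0.129% in the postnatal libraries. Right: number of the 69 tested genes whose highest postnatal value is in each postnatal library, as deposited and under 5 other scalings; postnatal replicate 1 is highest in 60 genes as deposited and in 4 in unscaled CPM.

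The size of the fall depended on the scaling. Rescaled to the reads outside the 20 highest genes, the median of all genes tested moved from -0.03 to 0.21, the share of higher calls among all calls from 47.5% to 61.5%, and the medians of the large and small subunit to -0.84 and -0.75. In that scaling 38 large-subunit and 26 small-subunit genes fell and none rose. In unscaled CPM the median of all genes tested was -0.36 and those of the subunits -1.40 and -1.31. A scaling factor moves all genes of a library by the same factor, so it moves these medians together.

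Genes of the mitochondrial ribosome under other symbols did not all follow. Dap3, a GTP-binding protein of the small subunit, fell by 1.16 ± 0.10, and Chchd1, also of the small subunit, had a log2 fold change of -1.05 ± 0.14. Ptcd3, a pentatricopeptide protein of the small subunit, fell by 0.88 ± 0.13, and the large-subunit gene Gadd45gip1 by 1.16 ± 0.19. Aurkaip1, a small-subunit protein that also bears a name from its binding to Aurora kinase A, stood at 101, 98.7 and 106 before and 145, 135 and 135 after birth. It was higher in every postnatal library (log2 fold change 0.44 ± 0.09; limma adjusted p = 0.00323), but in unscaled CPM the value was 0.09 and the call was lost (limma adjusted p = 0.708). Of the 2 rows written in lower case besides mrpl11, mrpl9 fell by 0.77 ± 0.11. The other, mrpl24, stood at 23.4, 24.7 and 25.3 in the fetal and 25.8, 21.7 and 22.4 in the postnatal libraries, which overlap (-0.07 ± 0.11). The direction of mrpl24 flipped under 3 scalings, to between 0.04 and 0.16.

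The other genes needed to make and run the mitochondrial ribosome fell less evenly. Of 21 genes of its assembly and ribosomal RNA modification, 13 fell, none rose and the median was -0.67, with the largest falls in Gtpbp10, an assembly GTPase (-1.20 ± 0.15), and Mrm1, a ribosomal RNA methyltransferase (-1.11 ± 0.16). Of 13 translation factors, 10 fell and none rose (median -0.53). Tufm, the elongation factor that brings transfer RNA to the ribosome, fell by 1.41 ± 0.12, from 129 ± 10.1 to 48.0 ± 6.13, and the release factor gene Mtrf1l by 0.76 ± 0.14. The count of 10 was 6 without fetal replicate 2 and 6 without postnatal replicate 2. Of 19 mitochondrial tRNA synthetases and amidotransferase subunits, 17 fell and none rose (median -0.78), with Yars2 and Lars2, the enzymes for tyrosine and leucine, at -1.17 ± 0.18 and -1.17 ± 0.10.

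Upstream of translation, genes that copy, transcribe and process mitochondrial DNA and RNA also fell in most cases. Of 21, 16 fell, none rose and the median was -0.80. Mgme1, a mitochondrial DNA exonuclease, fell by 1.45 ± 0.19, Hsd17b10, part of the enzyme that trims transfer RNAs at their start, by 1.24 ± 0.19, and Tfam, which packages and transcribes mitochondrial DNA, by 0.68 ± 0.12. Polrmt, the mitochondrial RNA polymerase, stood at 16.9 ± 1.33 and 18.2 ± 2.04 (0.10 ± 0.13) and did not pass; its sign changed in unscaled CPM, to -0.23. Among 3 genes of insertion into the inner membrane, Cox18 fell by 0.41 ± 0.12, a call that ended without fetal replicate 2, fetal replicate 3 or postnatal replicate 3, at -0.42, -0.38 and -0.35, while Oxa1l stood at 60.5 ± 3.52 and 53.5 ± 5.63 and Letm1 at 24.4 ± 1.47 and 29.6 ± 2.64. Cox18 also lost its call without the 20 highest genes (-0.19), without acinar and hormone genes (-0.21) and with the replicate number as a block. Oxa1l did not pass as deposited, but passed as lower in unscaled CPM. Letm1 did not pass (0.27; limma adjusted p = 0.0629), but passed as higher with upper-quartile factors (0.38), without the 20 highest genes (0.50), without acinar and hormone genes (0.48) and by DESeq2 (0.32).

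Of 8 regulators of nuclear genes for mitochondria, 3 fell, none rose and the median was -0.32. This count is near the share of all genes tested that fell (33.1%). Gabpb1, a subunit of the GA-binding protein, fell by 0.59 ± 0.11, Nrf1, nuclear respiratory factor, by 0.49 ± 0.10, and Yy1 by 0.34 ± 0.09; Yy1 is named after its values were seen. The Nrf1 call was lost when rescaled to the reads outside the 20 highest genes (limma adjusted p = 0.113), where 1 of the 8 fell, against 5 in unscaled CPM. Myc stood at 49.0 ± 13.6 and 33.6 ± 8.51 and Esrra at 20.3 ± 0.539 and 19.4 ± 2.03. Ppargc1a, a coactivator of mitochondrial genes, stood at 3.28 ± 0.355 and 2.50 ± 0.514. None of them passed. Myc (log2 fold change -0.52) passed as lower in unscaled CPM, without fetal replicate 2, without postnatal replicate 1 and without both these libraries. Ppargc1a passed as lower in unscaled CPM.

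On the other side of the same process, 65 of 68 nuclear respiratory chain genes fell (median -0.89), led by the ATP synthase genes Atp5f1b (-1.52 ± 0.19) and Atp5mc3 (-1.39 ± 0.13). The 13 protein genes of mitochondrial DNA, whose messages the mitochondrial ribosome translates, had a median of -0.05, and 1 of them fell: Mt-atp8, an ATP synthase gene named here after its values were seen (-0.35 ± 0.13; limma adjusted p = 0.0441). The count that fell was 6 in unscaled CPM, 3 without fetal replicate 2 and 5 without postnatal replicate 1, and 0 in several other alternatives; without the 20 highest genes 2 rose. The 2 largest changes of that list, Mt-nd2 and Mt-nd5, did not pass (-0.41 ± 0.23 and -0.38 ± 0.21). Both passed as lower in unscaled CPM and without both fetal replicate 2 and postnatal replicate 1. Mt-nd2 also passed without fetal replicate 2 alone, and Mt-nd5 without postnatal replicate 1 alone. Of 70 cytosolic ribosomal protein genes tested, 69 fell, with a median of -1.03 beside the -1.01 of their mitochondrial counterparts. In the same libraries all 10 proliferation genes tested fell (median -2.54), and their part in the other falls was not tested.

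**Figure D4:**
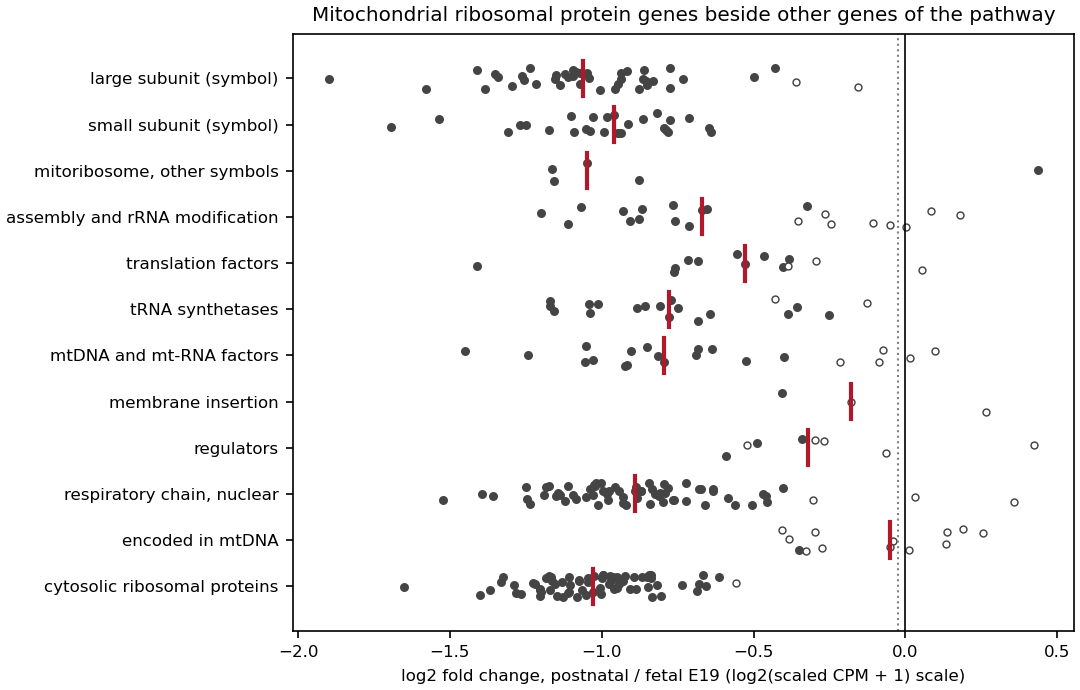
Log2 fold change of each gene tested, postnatal over fetal E19, for both subunits of the mitochondrial ribosome and for the other gene lists; filled points passed an adjusted p of 0.05, open points did not, and red bars are list medians. The subunits (-1.06 and -0.96) lie near the cytosolic ribosomal proteins (-1.03), and the genes encoded in mitochondrial DNA (-0.05) near the median of all genes tested (dotted line, -0.03).

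Since these genes fell together, their promoter windows were compared. RefSeq (GRCr8) gave a window from 250 bases before to 50 bases after the start for 55 of the 69 tested genes, 34 of the large and 21 of the small subunit. Motifs known from nuclear genes for mitochondria were searched on both strands: the GA-binding protein (ETS) core CCGGAAG, the YY1 motif AAGATGGC and the NRF1 motif, which reads GCGC, any base, TGCGC; none of these 3 contains another. The ETS core was present in 19 of 55 windows (34.5%), against 9.22% of all 27457 RefSeq windows and 16.8% of 9820 windows of genes tested. The YY1 motif was present in 13 (23.6%), against 3.44% and 5.07%. The NRF1 motif was present in 8 (14.5%), against 4.71% and 9.49%. The ETS core stood in 32.4% of large-subunit and 38.1% of small-subunit windows, and YY1 in 20.6% and 28.6%. NRF1 stood in 17.6% and 9.52%, so that the small-subunit windows were at the 9.49% of genes tested. The median GC content was 55.7%, against 52.3% in all windows and 60.7% in those of genes tested.

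Genes with and without the ETS, YY1 or NRF1 motif had medians close together. The median log2 fold change was -0.945 with and -1.02 without the ETS core, -1.11 with and -0.95 without the YY1 motif, and -1.04 with and -0.95 without the NRF1 motif. The windows below are examples and do not bear on these medians. They belong to the genes that fell most and least in each subunit. Mrpl45 is added as the gene with an NRF1 match that fell most, and Mrpl46 for its shared start region. Capitals mark matches to the ETS, YY1 and NRF1 motifs.
Mrpl12 (chr10:106256496-106256795, + strand): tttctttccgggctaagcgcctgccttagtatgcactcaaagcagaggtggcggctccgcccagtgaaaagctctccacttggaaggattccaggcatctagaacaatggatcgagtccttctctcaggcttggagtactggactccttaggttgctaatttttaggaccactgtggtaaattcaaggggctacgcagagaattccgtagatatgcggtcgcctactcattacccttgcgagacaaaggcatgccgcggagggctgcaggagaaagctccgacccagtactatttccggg
Mrpl36 (chr1:31795072-31795371, - strand): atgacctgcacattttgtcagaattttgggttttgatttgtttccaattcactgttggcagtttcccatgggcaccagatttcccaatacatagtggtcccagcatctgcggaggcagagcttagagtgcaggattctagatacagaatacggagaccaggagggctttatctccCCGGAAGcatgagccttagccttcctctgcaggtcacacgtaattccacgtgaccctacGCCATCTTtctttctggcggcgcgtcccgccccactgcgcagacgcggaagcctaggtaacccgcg
Mrps27 (chr2:32473954-32474253, + strand): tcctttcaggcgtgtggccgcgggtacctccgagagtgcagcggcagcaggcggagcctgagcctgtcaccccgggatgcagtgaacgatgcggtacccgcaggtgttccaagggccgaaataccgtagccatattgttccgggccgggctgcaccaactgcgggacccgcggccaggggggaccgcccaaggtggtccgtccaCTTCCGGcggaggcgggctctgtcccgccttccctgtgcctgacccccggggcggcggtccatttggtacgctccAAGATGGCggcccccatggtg
Mrps33 (chr4:69566889-69567188, - strand): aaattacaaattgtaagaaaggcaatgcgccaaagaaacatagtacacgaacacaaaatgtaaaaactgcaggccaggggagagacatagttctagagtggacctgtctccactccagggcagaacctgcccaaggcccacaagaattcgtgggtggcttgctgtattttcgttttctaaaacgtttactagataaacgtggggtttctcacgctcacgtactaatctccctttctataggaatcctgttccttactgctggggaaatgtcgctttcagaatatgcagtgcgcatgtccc
Mrpl45 (chr10:82804789-82805088, + strand): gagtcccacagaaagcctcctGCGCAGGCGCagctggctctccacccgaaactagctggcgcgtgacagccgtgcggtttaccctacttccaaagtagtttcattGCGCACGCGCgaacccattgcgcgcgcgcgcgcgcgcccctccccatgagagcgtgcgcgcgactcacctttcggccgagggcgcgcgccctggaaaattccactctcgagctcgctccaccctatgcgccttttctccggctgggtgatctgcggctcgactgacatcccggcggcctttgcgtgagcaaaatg
Mrpl46 (chr1:142116981-142117280, - strand): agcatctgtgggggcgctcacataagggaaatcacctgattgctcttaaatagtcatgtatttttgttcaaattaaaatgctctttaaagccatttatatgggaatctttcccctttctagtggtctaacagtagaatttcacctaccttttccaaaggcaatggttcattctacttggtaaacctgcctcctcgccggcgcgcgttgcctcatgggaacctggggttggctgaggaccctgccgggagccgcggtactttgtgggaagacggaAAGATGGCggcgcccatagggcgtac
Mrps27, the small-subunit gene that fell most, and Mrpl36, the gene that changed least, both hold an ETS and a YY1 match. Mrpl12, with the largest fall, and Mrps33, with the smallest of its subunit, hold none of the 3 motifs in these windows. Mrpl45 holds 2 NRF1 matches. A match describes the letters only and is not a binding site.

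Many of these genes start back to back with another gene. A protein-coding gene on the other strand started within 1000 bases upstream in 16 of the 55 windows (29.1%). This held for 4.92% of all windows and 10.6% of those of genes tested. Windows of genes that are not protein-coding counted there as having no such neighbour, which can lower these background shares. In 1 case both partners encode mitochondrial ribosomal proteins: Mrpl46 of the large and Mrps11 of the small subunit start 234 bases apart. Mrpl46 stood at 23.4, 28.3 and 28.0 before and 15.6, 13.2 and 13.6 after birth, and Mrps11 at 28.3, 31.8 and 36.7 and 17.6, 14.7 and 16.8. They fell by 0.86 ± 0.12 and 0.94 ± 0.13.

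The other partners did not all fall with them. Of 12 tested partners that are not mitochondrial ribosomal protein genes, 8 fell, 2 rose and 2 did not pass. Of all genes tested, 33.1% fell and 30.0% rose. Eme1, a nuclease subunit gene beside Mrpl27 (-1.22 ± 0.13), fell by 2.01. Tcp1, a chaperonin subunit gene beside Mrpl18 (-0.94 ± 0.16), fell by 1.57, and the proteasome gene Psma2 beside Mrpl32 (-1.11 ± 0.14) by 1.23. Ndufb5, a respiratory complex I gene, fell by 0.98 beside Mrpl47 (-0.86 ± 0.11), and Fau, which encodes a cytosolic ribosomal protein, by 0.55 beside Mrpl49. Those that rose were Pnpla7, a phospholipase gene, by 0.64 beside Mrpl41 (-0.86 ± 0.14), and the kinesin light chain gene Klc4 by 0.52 beside Mrpl2 (-0.78 ± 0.14). These partners were named after their values were seen. In RefSeq the spans of 18 of the 69 tested genes overlap another gene, and since the strand setting of the authors' counting is not given in the sources used here, reads of such pairs cannot be told apart.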

How the data were processed

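RNA of rat islets was sequenced after ribosomal RNA depletion with a stranded kit, per the labels' protocols. TopHat2 2.0.8b and edgeR 3.30.3 are named, without roles, per the submitters' processing notes; for build, annotation, counter and strand setting the sources used here state nothing. The authors deposited 1 table with a normalized signal per gene for 6 libraries. Each value is a whole number of reads times 1 constant per library (100% whole within 0.001 reads), and the factors implied (0.677 to 1.25) match TMM factors recomputed from the recovered reads, so the signal is treated as scaled CPM, in which 3 reads are worth 0.0726 to 0.152. A row without a gene name, with at most 9 reads per library (3.19e-05%), was left out of the tests.

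Genes at or above 1 in 3 or more libraries entered a two-sided limma 3.58.1 fit of log2(value + 1) on group under R 4.3.3, with a trended prior and Benjamini-Hochberg adjustment; this scale understates changes of low genes. The recovered reads were also tested with edgeR 4.0.16 and with DESeq2 1.42.0. The fit was tested on simulated data in which few genes changed. Many more differed between the islet groups, and the simulation does not cover that case. No library duplicates another: within groups, counts differed far more than reads drawn from 1 library would (chi-square over its degrees of freedom, 49.9 to 411). The rule for the 70 genes uses names only, but the genes and lists were chosen with earlier results of these data known. Named are genes with a fixed role, the 5 largest and 5 smallest changes of each subunit, genes not called, and the 2 largest changes of each list. Older list symbols were matched through RefSeq; Mrpl30, Mrpl39, Mrpl50, Mrpl53, Mrps6, Mrps36 and Gabpa are not analysed here. Levels are not compared between genes, as transcript lengths were not used.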

Additional observations from a re-analysis of the deposited data

How the results depend on the processing

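Of the 67 falls, 64 held under all 21 alternatives; those of Mrpl34, Mrpl57 and Mrps2 were lost under some. By symbol, the number of large-subunit genes that fell ranged from 38 to 41 and of small-subunit genes from 26 to 27, and none rose; grouped by position in the ribosome the numbers were 42 and 25. Leaving out any 1 library gave medians between -1.18 and -0.98 for the large and between -1.07 and -0.88 for the small subunit. Unscaled CPM gave -1.40 and -1.31, with a median of all genes of -0.36 and 1780 genes higher, against 3874 as deposited. Rescaling to the reads outside the 20 highest genes gave -0.84, -0.75 and 0.21 for these 3 medians, and outside acinar and hormone genes -0.77 for the small subunit and 0.18 for all genes. The median of all genes was also 0.0091 with no filter, -0.11 with a mean of at least 5, 0.084 with upper-quartile factors and 0.017 by DESeq2. Genes near 0 changed sign: with upper-quartile factors, without the 20 highest genes and without acinar and hormone genes, mrpl24 was at 0.043, 0.16 and 0.14 and Esrra at 0.048, 0.17 and 0.14; under the latter 2, Mrpl36 was at 0.049 and 0.027 and Oxa1l at 0.057 and 0.033. In unscaled CPM Polrmt was at -0.23 and Letm1 at -0.074; without both fetal replicate 2 and postnatal replicate 1 Polrmt was at -0.033. Leaving out 1 library put Esrra between -0.11 and 0.021. The causes were not tested. Deviations from the group mean correlated at -0.21, 0.10 and -0.25 between libraries of equal replicate number. Between libraries of unequal number the values ranged from -0.36 to 0.43. With 3 libraries per group, deviations centred within the group cannot decide whether equal numbers pair the libraries. With the replicate number as a block, 38 large-subunit and 27 small-subunit genes fell, and 3563 genes of the table were higher and 3863 lower.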
